A study of Ovis aries with 49 samples.

Results

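The immediate early genes FOS, FOSL2, JUN, JUNB, JUND, EGR1, ATF3 and DUSP1 were described array by array in adipose tissue of lambs. They were taken by gene symbol from a list of 10 genes, of which 8 were held by the table, each on 1 probe set out of 10273, and no probe set with the symbol FOSB or IER2 was analysed here. RNA of the epicardial, omental, perirenal, sternal and subcutaneous depots was hybridised to human U133 Plus 2 arrays, whose probes match human transcripts, at 7 days (24 arrays) and 28 days (25 arrays) of age. Each depot and age held 5 arrays, except subcutaneous fat at 7 days with 4. By the labels, 1 lamb of each twin pair was sampled at each age. The labels do not state what the ewes were fed, and all titles share an unexplained letter C. Ages follow the titles and the age field, although 1 description repeated in every sample gives an older range. Nothing defines the replicate numbers as animals and none recurs between the ages, so p-values here cover array-to-array spread that may be technical. The numbers were replaced by letters (A to G for the younger and H to O for the older lambs). More tissue was used for RNA at 28 days than at 7 days, so age and the amount of tissue cannot be told apart.

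Immediate early genes are transcribed within minutes of a growth factor, hormone, stretch or stress signal, without new protein synthesis, and their mRNAs are short-lived. FOS and FOSL2 encode Fos proteins, which pair with the Jun proteins (JUN, JUNB and JUND) to form the transcription factor AP-1. EGR1 is a zinc finger factor induced through serum response elements, ATF3 is a stress-induced partner of the Jun proteins, and DUSP1 is a phosphatase that switches off MAP kinases. In adipose tissue AP-1 and EGR1 act in preadipocytes, fibroblasts and vascular cells as well as in adipocytes, and the genes are also known to respond to the handling of fresh tissue.

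The values are log2 intensities after GCRMA, a background correction and summary of the probes, on which 1 unit is a 2-fold difference. They ran from 2.49 to 14.04 in the whole table, 82.7% lay below 4, and the mean of an array was between 3.25 and 3.44. Many probe sets hold 1 low value that recurs on many arrays, which was read as no signal above background. Lower values also occur, on 13 arrays for JUNB and 16 for DUSP1, so that the recurring value is not the lowest a probe set can take. Bounds are given for called differences between groups, where the value recurred on at least 10 arrays and every array of the lower group lay at or below it. Such a bound runs from the recurring value to the mean of the higher group. All other differences, those of FOS included, are plain differences of means, also where a group lay at or below such a value. Arrays of sternal and subcutaneous fat differed in muscle genes. The muscle creatine kinase gene CKM exceeded 4 on 9 of them, which were sternal D and subcutaneous A, E and G at 7 days, and sternal J, N and O and subcutaneous J and M at 28 days. It also exceeded 4 on 9 of the 10 epicardial arrays, but those 9 arrays of sternal and subcutaneous fat alone are meant below by the CKM-high arrays, and the epicardial arrays were kept wherever these were left out. The 12 skeletal muscle genes measured had means of 2.68 to 4.19 on the sternal arrays at 7 days and 2.71 to 7.36 at 28 days, and of 2.71 to 7.86 and 2.73 to 3.98 on the subcutaneous arrays. In epicardial fat the 7 heart muscle genes averaged 8.64 ± 1.24 (SD, n = 5) at 7 days and 7.16 ± 2.63 (SD, n = 5) at 28 days. Of the 8 adipocyte genes measured, FABP4 (at most 3.18 on any array), CIDEC (3.09), CIDEA (3.40), PPARG (3.67) and LIPE (3.86) stayed low on all 49 arrays, so the labelled tissue could not be checked by them. LPL reached 4.40, PNPLA2 4.33 and UCP1, the uncoupling protein of brown fat, 8.22.

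Of the 8 genes, JUND had the strongest signal on its probe set and ATF3 the weakest. JUND, a Jun protein that is present in resting cells, lay between 9.91 and 12.17 and JUN between 4.63 and 9.02. FOS lay between 3.57 and 10.79, with 4.34 on 6 arrays and lower values on 9. EGR1 lay between 2.64 and 7.66, with 3.76 on 7 arrays and lower values on 21. JUNB lay between 2.58 and 6.39, the value 3.53 recurring on 21 arrays. Such counts of arrays are of values rounded to 2 decimals. DUSP1 lay between 2.52 and 4.60, with 3.49 on 12 arrays. FOSL2 was at 2.69 on 28 arrays and ATF3 at 2.49 on 33, and neither passed 3.57 on any array. Differences between probe sets are not differences in the amount of RNA, since each probe set binds differently. In the order of all probe sets by their SD over the 49 arrays, FOS was the 21st and EGR1 the 60th.

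FOS, the founding member of the Fos family, was low in most arrays at 7 days and had its highest group means in subcutaneous and sternal fat at 28 days. Of single arrays, sternal N and O of 28 days were highest, followed by perirenal M of 28 days. At 7 days FOS was 4.34, 4.19, 3.82, 4.06 and 4.34 on epicardial arrays A, D, G, C and E, which is the narrowest spread of any depot at that age. On omental arrays A, D, G, C and E it was 5.40, 4.34, 5.16, 4.66 and 4.34, and on perirenal arrays A, D, G, B and C it was 4.06, 4.91, 4.81, 4.34 and 4.71. These 3 depots overlapped at 7 days. On sternal arrays D, F, G, B and E FOS was 7.09, 3.57, 4.03, 5.19 and 4.94, with D alone above 6. On subcutaneous arrays A, F, G and E it was 6.13, 4.04, 7.18 and 6.54, with F at the level of epicardial fat. The high arrays here, sternal D and subcutaneous A, E and G, are those with CKM above 4 in these depots. The epicardial arrays had CKM values of 8.06 to 11.63 and FOS values of at most 4.34.

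At 28 days FOS was 4.49, 3.81, 6.46, 5.51 and 4.34 on epicardial arrays I, J, L, N and O. It was 6.05, 4.90, 5.41, 8.33 and 6.36 on omental arrays I, J, M, N and O, and 4.47, 6.42, 8.95, 4.74 and 4.13 on perirenal arrays I, J, M, N and K. Perirenal M stood above the other perirenal arrays, which reached the same range as at 7 days except for J. Sternal arrays I, J, M, N and O held 4.62, 5.34, 8.94, 10.79 and 10.22, so that 2 arrays lay within the range of 7 days and 3 lay above it. Subcutaneous arrays H, I, J, M and N held 8.29, 8.57, 7.98, 8.27 and 8.94, all above every subcutaneous array at 7 days. On sternal arrays I, J, M, N and O of 28 days CKM was 2.73, 12.72, 2.88, 4.51 and 11.32. Of the 3 with high FOS, N and O were CKM-high and M was not, while J was CKM-high with a FOS value of 5.34. The part of muscle RNA in the differences between these arrays was not tested.

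**Figure D1:**
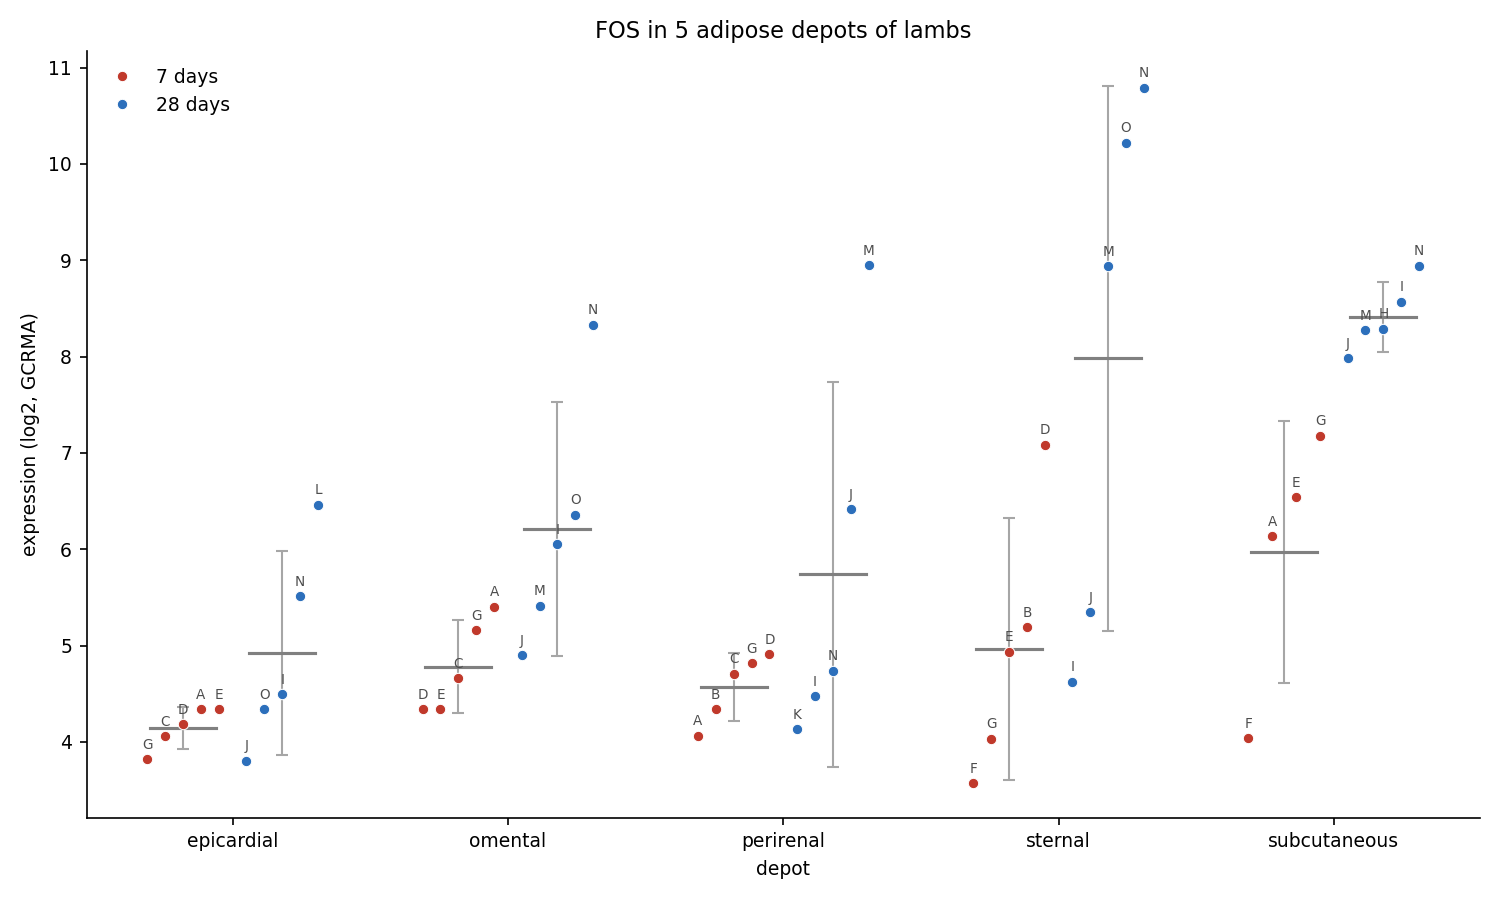
FOS (log2 after GCRMA, vertical axis) on each array of the 5 depots at 7 days (red) and 28 days (blue), with the replicate letter beside each point and grey bars for the mean and SD of each group (n = 5, and 4 for subcutaneous fat at 7 days). The 5 subcutaneous arrays at 28 days lie between 7.98 and 8.94, above all 4 at 7 days, and the sternal arrays at 28 days fall apart into 2 below 6 and 3 above 8.

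By group mean, FOS was highest in subcutaneous fat at 28 days (8.41 ± 0.36, SD, n = 5), followed by sternal fat at 28 days (7.98 ± 2.83), omental fat at 28 days (6.21 ± 1.31), subcutaneous fat at 7 days (5.97 ± 1.36) and perirenal fat at 28 days (5.74 ± 2.00). Then came sternal fat at 7 days (4.96 ± 1.36), epicardial fat at 28 days (4.92 ± 1.06), omental fat at 7 days (4.78 ± 0.48), perirenal fat at 7 days (4.57 ± 0.35) and epicardial fat at 7 days (4.15 ± 0.22). Each neighbouring pair in that order differed by less than the larger of its SDs, except the last. Pooled over the depots, the SD of FOS within groups was 0.87 at 7 days and 1.73 at 28 days. For EGR1 the pooled SDs were 0.68 and 1.16, and for JUN 0.32 and 0.72. The spread did not grow in every depot. In subcutaneous fat the SD of FOS went from 1.36 to 0.36 and that of JUN from 0.38 to 0.22. In omental fat that of EGR1 went from 1.01 to 0.69, and in epicardial fat that of JUN from 0.28 to 0.16.

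The comparison of the ages asked how expression in a depot changes over the first weeks of life. Averaged over the 5 depots in 1 limma fit of all 10 groups, FOS rose by 1.77 ± 0.38 (SE) on the log2 scale between 7 and 28 days (adjusted p = 0.00037). The fit took all arrays as independent and did not use the twin pairs, since no replicate number links the ages. EGR1 rose by 1.14 ± 0.26 (adjusted p = 0.000909), JUN by 0.85 ± 0.16 (3.95e-05), JUND by 0.57 ± 0.11 (5.64e-05) and JUNB by 0.51 ± 0.17 (0.0194). DUSP1 (0.10 ± 0.08, adjusted p = 0.43), FOSL2 (0.03 ± 0.05, 0.701) and ATF3 (-0.02 ± 0.03, 0.718) did not pass the test. Thus 5 of 8 were called higher and none lower, where 25.5% of all probe sets were called in this comparison, 20.6% higher and 4.85% lower. The median difference of the 8 was 0.54, against 0.03 over all probe sets. Under quantile normalization the split of calls over all probe sets moved from 2117 higher and 498 lower to 1022 and 867, and JUNB lost its call (0.39, adjusted p = 0.122). Within single depots it moved from 789 higher and 161 lower to 249 and 244 in subcutaneous fat, from 640 and 317 to 437 and 385 in perirenal fat, from 1391 and 106 to 394 and 374 in omental fat, from 433 and 167 to 270 and 238 in epicardial fat, and from 254 and 400 to 342 and 409 in sternal fat. In whole tissue, a change in the number of cells of a type and in the RNA per cell cannot be told apart.

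In sternal fat FOS rose by 3.02 ± 0.84 (SE, adjusted p = 0.0194), EGR1 by 2.12 ± 0.58 (0.0174) and JUN by 1.41 ± 0.34 (0.0061), so that 3 of 8 were called, where 6.37% of all probe sets were called and 2.47% called higher. EGR1 was 4.74, 3.35, 2.99, 3.70 and 3.62 on sternal arrays D, F, G, B and E at 7 days, and 3.62, 3.76, 6.59, 7.66 and 7.37 on I, J, M, N and O at 28 days. The groups overlapped for EGR1, and M, N and O, the arrays with high FOS, were again the 3 high ones. JUN was between 6.24 and 6.43 on the 5 arrays at 7 days and was 6.90, 6.67, 7.25, 8.87 and 9.02 on I, J, M, N and O at 28 days, with no overlap. JUNB was 6.39 on sternal N and at most 3.86 on the other sternal arrays.

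The sternal calls of FOS and EGR1 rested on few arrays, while that of JUN stayed when any 1 array was left out (adjusted p of up to 0.0438). FOS was 2.67 without sternal F of 7 days (adjusted p = 0.0679) and 2.79 without G (0.0576). It was 2.78 without M of 28 days (0.0536), 2.32 without N (0.112) and 2.46 without O (0.0933). EGR1 lost its call without G of 7 days (1.95, adjusted p = 0.0552) and without M (1.92, 0.0533), N (1.66, 0.102) or O (1.73, 0.0869) of 28 days. When only the 2 sternal groups were fitted, the adjusted p was 0.491 for FOS, 0.443 for EGR1 and 0.301 for JUN. Without the 9 CKM-high arrays the difference was 2.35 for FOS (adjusted p = 0.203), 1.69 for EGR1 (0.221) and 0.74 for JUN (0.427), with 4 sternal arrays at 7 days and 2 at 28 days left. Of the 12 skeletal muscle genes, 1 was called higher in sternal fat at 28 days, against the 2.47% of all probe sets, and none lower.

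In subcutaneous fat JUND rose by 1.33 ± 0.25 (SE, adjusted p = 0.000438) and JUN by 1.20 ± 0.36 (0.0292). JUNB (adjusted p = 0.0277) and DUSP1 (0.0371) were also called higher, from 4 arrays at 7 days that all lay at or below the recurring value, so that JUNB was at least 1.74-fold and DUSP1 at least 1.25-fold higher. These were 4 of 8, where 9.25% of all probe sets were called and 7.68% called higher. Under quantile normalization JUND alone kept its call, with an adjusted p of 0.0901 for JUN, 0.114 for JUNB and 0.285 for DUSP1. With only the 2 groups fitted JUNB (0.107) and DUSP1 (0.301) lost theirs. JUND was 10.25, 9.91, 9.99 and 10.38 on subcutaneous A, F, G and E at 7 days, and 11.18, 10.99, 11.71, 11.69 and 11.73 on H, I, J, M and N at 28 days. JUN was 6.52, 5.74, 6.57 and 6.39 on the former and 7.73, 7.42, 7.36, 7.25 and 7.74 on the latter. Both genes were higher on every array of 28 days than on any of 7 days. JUNB was 2.86, 2.82, 2.87 and 3.53 on the arrays of 7 days and 4.20, 4.62, 3.74, 3.84 and 5.25 on those of 28 days. DUSP1 was 3.49, 3.49, 2.92 and 2.85 on the former and 3.37, 3.59, 3.72, 3.80 and 4.60 on the latter, and overlapped.

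FOS differed by 2.44 ± 0.89 (SE, 95% interval 0.64 to 4.24) and EGR1 by 1.46 ± 0.62 (0.21 to 2.71) between the ages in subcutaneous fat, and neither passed the test across all probe sets (adjusted p = 0.0785 and 0.142). EGR1 was 3.71, 3.76, 3.76 and 4.57 on A, F, G and E at 7 days and 5.76, 5.37, 4.64, 5.50 and 5.81 on H, I, J, M and N at 28 days, with E of 7 days just under J of 28 days. FOS, EGR1, JUN, JUNB and JUND were thus all without overlap between the ages in this depot, where 7.02% of all probe sets were higher on every array of 28 days. In sternal fat JUN was the 1 such gene (1.33% of all probe sets), in perirenal fat JUN (6.32%) and in epicardial fat JUND (3.87%), and in omental fat there was none (11.2%).

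**Figure D2:**
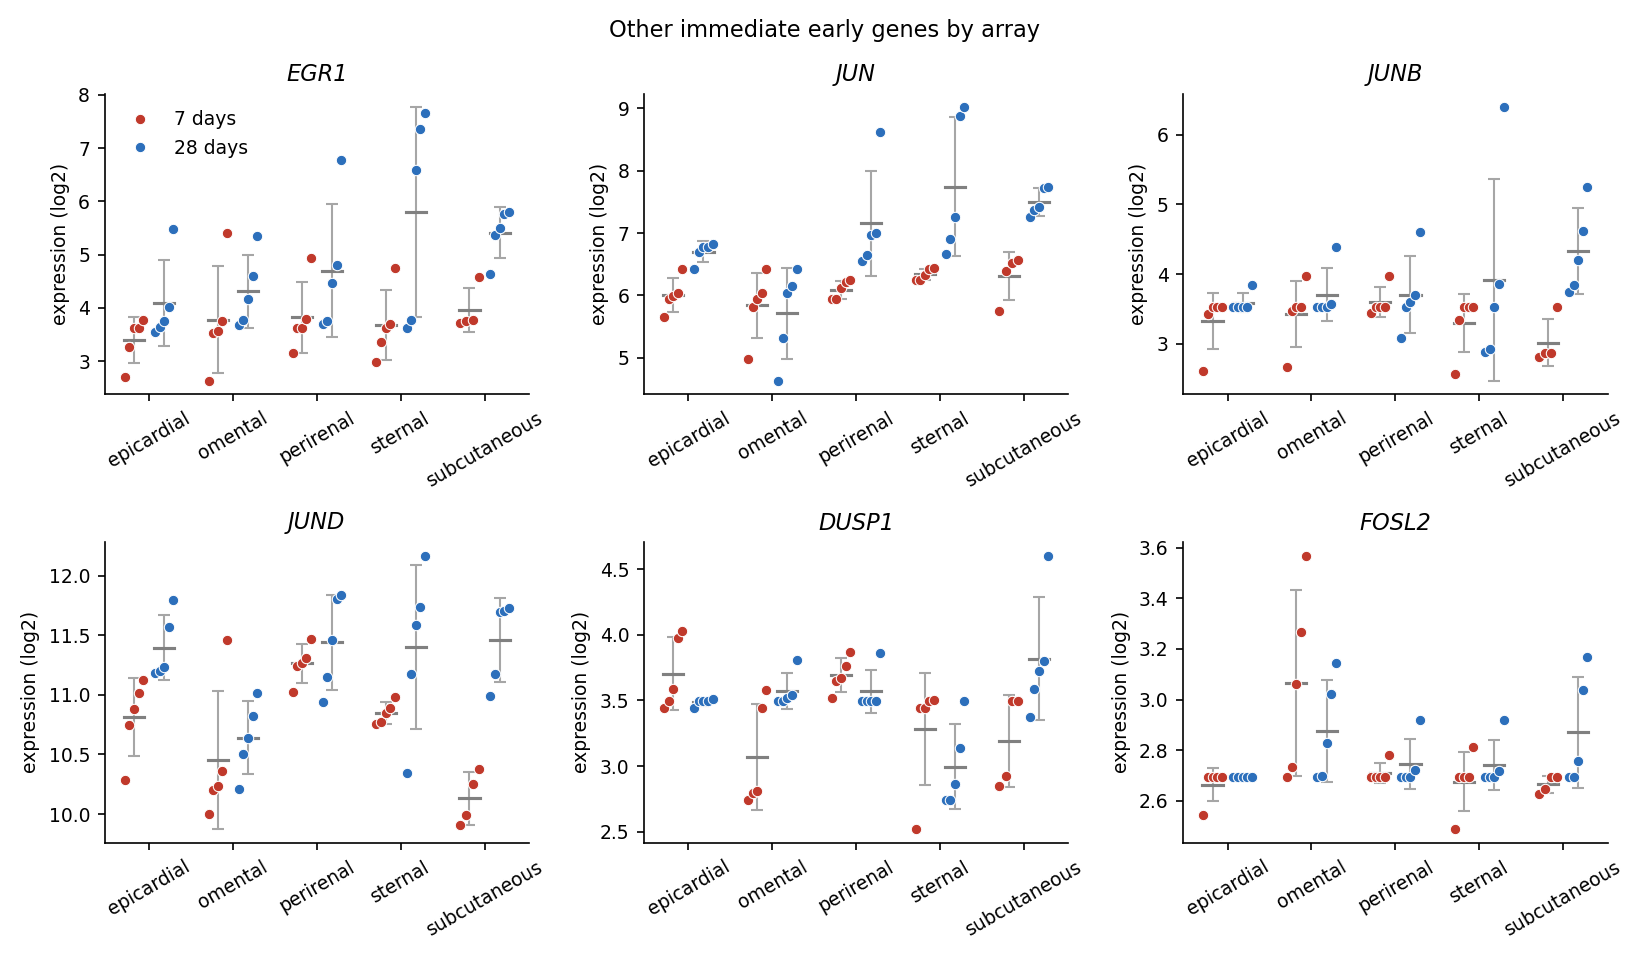
EGR1, JUN, JUNB, JUND, DUSP1 and FOSL2 (log2 after GCRMA, vertical axes of different range) on each array of the 5 depots at 7 days (red) and 28 days (blue), with grey bars for the mean and SD. JUND and JUN are higher on all 5 subcutaneous arrays of 28 days than on all 4 of 7 days, 3 sternal arrays of 28 days stand high for EGR1, and FOSL2 is at 2.69 on 28 arrays.

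The subcutaneous calls other than that of JUND depended on single arrays. JUN was lost without F of 7 days (1.01, adjusted p = 0.116) or H (1.14, 0.0619) or N (1.14, 0.0574) of 28 days. JUNB was lost without A (1.26, adjusted p = 0.069), F (1.24, 0.0717) or G (1.26, 0.0704) of 7 days and without I (1.24, 0.0585) or N (1.08, 0.092) of 28 days. DUSP1 was lost without G (0.54, adjusted p = 0.131) or E (0.51, 0.141) of 7 days or M (0.63, 0.0548) or N (0.43, 0.165) of 28 days. Of the 12 skeletal muscle genes, 8 were called lower in subcutaneous fat at 28 days, where 1.57% of all probe sets were called lower, and none higher, and their part in the differences above was not tested. Without the 9 CKM-high arrays, which leaves F alone at 7 days in subcutaneous fat, FOS differed by 4.56 (adjusted p = 0.0343) and DUSP1 lost its call (0.884), with the lone array taken to vary like the other groups.

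In perirenal fat JUN rose by 1.07 ± 0.34 (SE, adjusted p = 0.0394), 1 of 8, where 9.32% of all probe sets were called and 6.23% called higher. JUN was 5.94, 6.12, 6.20, 5.94 and 6.24 on arrays A, D, G, B and C at 7 days and 6.64, 6.55, 8.62, 7.00 and 6.96 on I, J, M, N and K at 28 days. The call was lost without any 1 of 8 arrays of this depot, with differences of 0.70 (adjusted p = 0.233) without M of 28 days and 1.03 to 1.11 without A, D, G, B or C of 7 days or N or K of 28 days. It was also lost under quantile normalization (adjusted p = 0.0909) and with only the 2 groups fitted (0.127). FOS differed by 1.17 (95% interval -0.52 to 2.87, adjusted p = 0.528) and EGR1 by 0.87 (-0.30 to 2.05, 0.476). Perirenal M, the highest array for FOS, was also the highest for EGR1 (6.77) and JUNB (4.61).

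None of the 8 was called in omental or epicardial fat, where 14.6% and 5.84% of all probe sets were called by limma, and 13.5% and 4.21% called higher. At an unadjusted p under 0.05 there was 1 gene in omental fat (DUSP1, 0.50 ± 0.19, SE, adjusted p = 0.0641). There were 2 in epicardial fat, JUND (0.58 ± 0.23, adjusted p = 0.159) and JUN (0.69 ± 0.34, 0.303). FOS differed by 1.43 in omental fat (95% interval -0.27 to 3.13, adjusted p = 0.29) and by 0.78 in epicardial fat (-0.92 to 2.48, 0.796). All 5 epicardial arrays of 7 days lay at or below 4.34, the most frequent value of FOS. JUN differed by -0.13 in omental fat (-0.82 to 0.56, 0.904). Its values there were 4.98, 6.03, 6.42, 5.94 and 5.82 on A, D, G, C and E at 7 days and 5.31, 4.63, 6.03, 6.43 and 6.14 on I, J, M, N and O at 28 days.

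**Figure D3:**
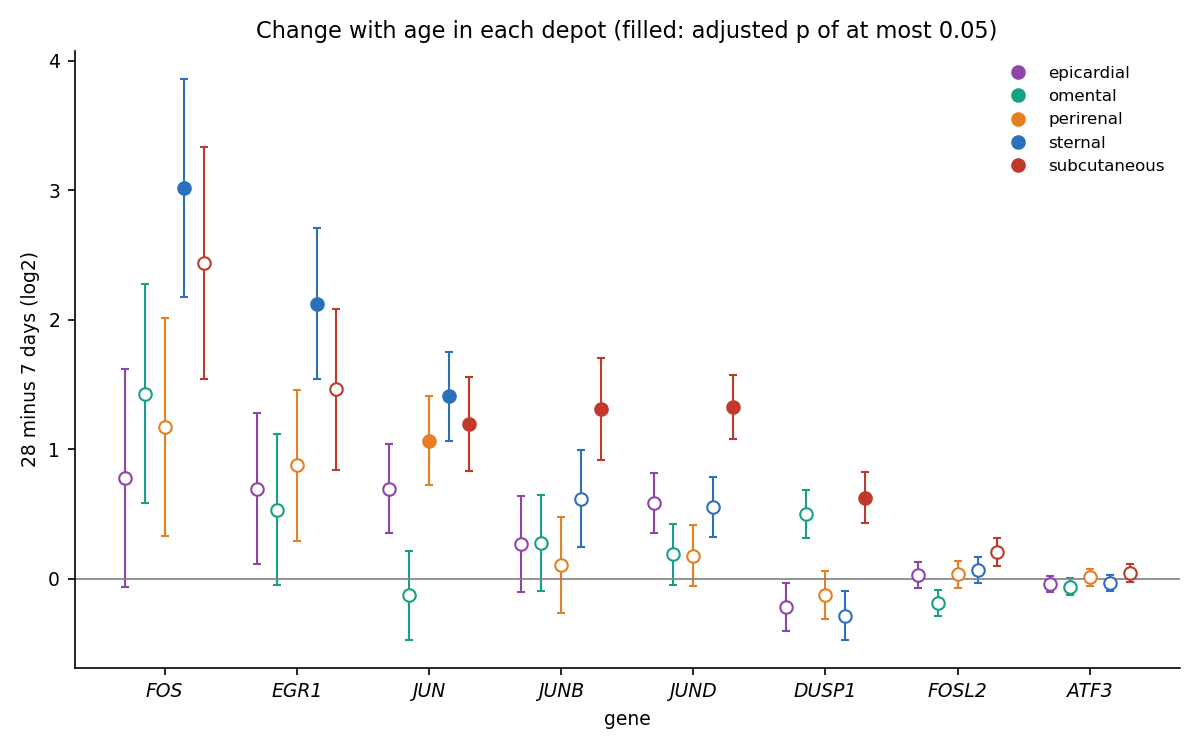
Difference between 28 and 7 days (log2, with the SE of the limma fit) of the 8 genes in each of the 5 depots, with filled points for an adjusted p of at most 0.05 over all probe sets. FOS shows the highest values in sternal (3.02) and subcutaneous (2.44) fat, and omental JUN (-0.13) lies below 0 while JUN in the other 4 depots lies above it.

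Whether the change with age differed between depots was tested by an F test of the interaction, which called 1 of 8 genes, DUSP1 (adjusted p = 0.0297), where 9.17% of all probe sets were called, a share near that of the 8. The call was lost without subcutaneous G (adjusted p = 0.058) or E (0.059) of 7 days, under quantile normalization (0.234) and without the 9 CKM-high arrays (0.237). The adjusted p was 0.573 for FOS, 0.56 for EGR1, 0.463 for JUNB, 0.145 for JUN and 0.0885 for JUND. Between pairs of depots, the change of JUN was lower in omental than in sternal fat by -1.54 ± 0.48 (SE, adjusted p = 0.0392, 7.99% of probe sets called). That of DUSP1 was lower in sternal than in subcutaneous fat by -0.91 ± 0.27 (adjusted p = 0.0409, 4.58% called), a size that rests on values at or below the recurring value in sternal fat at 28 days and subcutaneous fat at 7 days. Without the CKM-high arrays the adjusted p was 0.359 for JUN and 0.679 for DUSP1. A call in sternal fat and none in epicardial fat is therefore no shown difference for FOS.

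Between depots at 7 days, the F test called JUND alone of the 8 (adjusted p = 0.00874, and 0.0558 without the CKM-high arrays), where 8.16% of all probe sets were called. JUND was 11.26, 11.47, 11.31, 11.24 and 11.03 on perirenal A, D, G, B and C, above the 4 subcutaneous arrays given before and above omental A, G, C and E (10.24, 10.36, 9.996 and 10.20) but not D (11.46). It was higher in perirenal than in subcutaneous fat by 1.13 ± 0.21 (SE, adjusted p = 0.00274, 4.15% of probe sets called), with an adjusted p of 0.0538 without the CKM-high arrays. It was lower in omental than in perirenal fat by -0.81 ± 0.20 (adjusted p = 0.0193, 5.00% called), a call lost without omental A (0.0518) or C (0.0548) or perirenal D (0.0516), under quantile normalization (0.082) and with only the 2 groups fitted (0.15). FOSL2 was at least 1.29-fold higher in omental than in epicardial fat (adjusted p = 0.043, 4.18% called), where all 5 epicardial arrays lay at or below the recurring 2.69, with omental values of 3.06, 2.69, 3.27, 3.57 and 2.73 on A, D, G, C and E. That call was lost without any 1 of 19 of the 24 arrays, and FOSL2 was at or below 2.81 in the other depots at 7 days.

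Against the mean of the other 4 depots at 7 days, JUND was higher in perirenal fat by 0.70 ± 0.16 (SE, adjusted p = 0.011, 5.11% of probe sets called). It was lower in subcutaneous fat by -0.71 ± 0.17 (adjusted p = 0.0393, 1.53% called), a call lost without any 1 of 11 of the 24 arrays (adjusted p of up to 0.122). FOSL2 was higher in omental fat by 0.39 ± 0.09 (adjusted p = 0.0268), where 58 of 10273 probe sets were called higher and 100 lower. That call was lost without omental A, G or C (adjusted p of up to 0.114), and FOSL2 lay near its recurring value in the other depots. FOS was not called between the depots at 7 days (adjusted p = 0.226), although it was called with the replicate block. Its difference of subcutaneous fat from the other 4 was 1.36 (95% interval 0.41 to 2.31, adjusted p = 0.179). Without subcutaneous F the F test of FOS had an adjusted p of 0.0283, with only the CKM-high arrays A, G and E left in that depot. The part of muscle RNA in that result was not tested.

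Between depots at 28 days the F test called JUN (adjusted p = 0.00855) and DUSP1 (0.00971), 2 of 8, where 20.0% of all probe sets were called. FOS had an adjusted p of 0.0582. JUN was lower in omental fat than in sternal fat by -2.04 ± 0.43 (SE, adjusted p = 0.0021, 15.7% of probe sets called) and than in subcutaneous fat by -1.79 ± 0.43 (0.0311, 2.08% called). The former had an adjusted p of 0.0729 without the CKM-high arrays, and the latter lost its call without any 1 of 5 of the 25 arrays (up to 0.08). Every omental array (4.63 to 6.43) lay below every sternal (6.67 to 9.02) and subcutaneous one (7.25 to 7.74) for JUN. JUND too was lower in omental than in sternal fat, by -0.76 ± 0.26 (adjusted p = 0.048), a call lost without any 1 of 18 of the 25 arrays (adjusted p of up to 0.142). DUSP1 had its lowest mean in sternal fat, with 3.13, 2.74, 2.87, 2.74 and 3.49 on I, J, M, N and O, all at or below the recurring value of that probe set. It was at least 1.25-fold higher in subcutaneous than in sternal fat (adjusted p = 0.00203, 11.3% called, and 0.106 with only the 2 groups fitted). The F test of DUSP1 had an adjusted p of 0.126 under quantile normalization and 0.15 without the CKM-high arrays.

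DUSP1 was also called higher in omental than in sternal fat at 28 days (adjusted p = 0.0182) and in perirenal than in sternal fat (0.0218, 13.6% of probe sets called). The omental mean of 3.57 and the perirenal mean of 3.57 are themselves close to the recurring 3.49, so no fold is given, and both calls were lost under quantile normalization (0.244 and 0.196). For FOS the F test passed with an adjusted p of 0.0447 without omental N, 0.0197 without perirenal M, 0.0161 without sternal I and 0.0278 without sternal J. The difference of FOS between epicardial and subcutaneous fat was -3.49 (95% interval -5.64 to -1.33, adjusted p = 0.0745) and that between epicardial and sternal fat -3.06 (-5.21 to -0.90, 0.0581).

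EGR1 followed FOS across arrays most closely among 572 probe sets with an SD of at least 0.5. Over these, the Pearson r with FOS over the 49 arrays was 0.87 for EGR1 and 0.75 for KLF4, a zinc finger factor of early response. It was 0.73 for JUN, 0.72 for NR4A2, an orphan nuclear receptor, and 0.70 for EGR3, a relative of EGR1. BGN (0.70) and COL3A1 (0.68), genes of the extracellular matrix, S100A4 (0.67), JUNB (0.67) and the collagen receptor gene DDR2 (0.66) followed, and the median over the 572 probe sets was 0.01. Arrays share normalization and, in part, replicate numbers, and these r values are descriptions.

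After the mean of each group was taken off, which removes differences in level between depots and ages but not in spread, r with FOS was 0.83 for EGR1, 0.71 for JUN, 0.66 for JUNB and 0.61 for NR4A2. It was 0.61 for BGN, 0.61 for CCN1, a matricellular early response gene, and 0.60 for NFKBIZ, a regulator of NF-kB targets. EGR3 (0.58), SETD5 (0.51) and CCNL1 (0.46) completed the first 10, while KLF4 dropped to 0.43 and DDR2 to 0.31. Within groups FOS and EGR1 had an r of 0.38 over the 24 arrays at 7 days and 0.96 over the 25 at 28 days, and FOS and JUN of 0.27 and 0.80. At 28 days the SD of FOS was 2.83 in sternal and 2.00 in perirenal fat but 0.36 in subcutaneous fat. Sternal and perirenal arrays therefore weigh most in the r of that age. EGR1 was more than 0.5 above its most frequent value on 4 arrays at 7 days and 14 at 28 days, and FOS on 9 and 18. The part of low values in the r at 7 days was not tested. Within groups r with FOS was -0.08 for DUSP1 and -0.11 for ATF3. ATF3 was at 2.49 on 33 arrays, and DUSP1 was more than 0.5 above its most frequent value on only 2. These r values therefore cannot tell whether the RNA of these genes follows FOS. Without the 9 CKM-high arrays, r of FOS and EGR1 within groups was 0.78 and that of FOS and JUN 0.56.

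**Figure D4:**
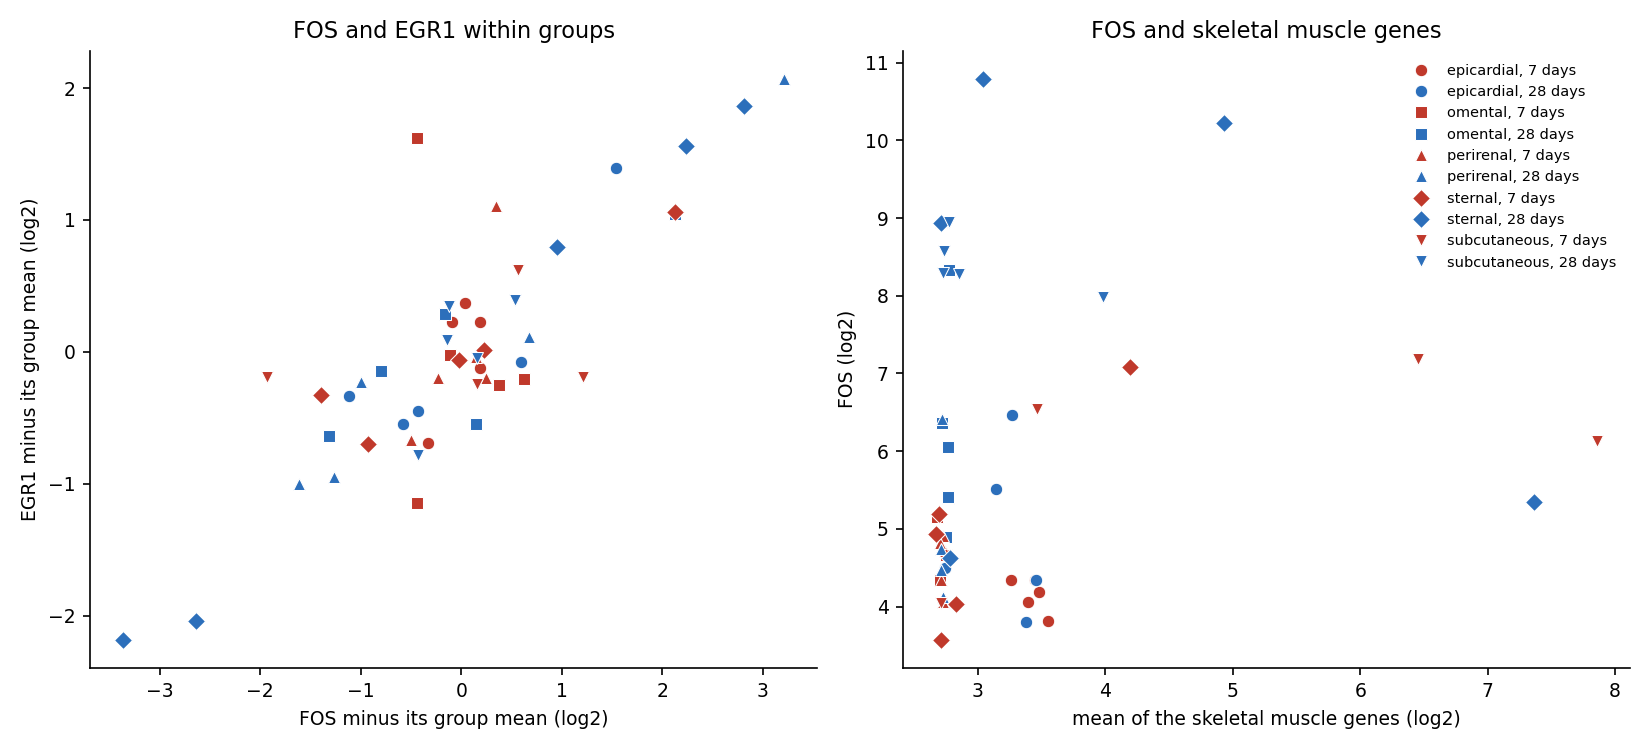
Left, FOS against EGR1 on each of the 49 arrays after the mean of its depot and age was taken off (log2), and right, FOS (log2) against the mean of the 12 skeletal muscle genes (log2), with a symbol for each depot, red for 7 days and blue for 28 days. Within groups the blue points lie along a line (r = 0.96) more closely than the red ones (r = 0.38). The part of muscle RNA in the values of FOS was not tested.

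**Figure D5:**
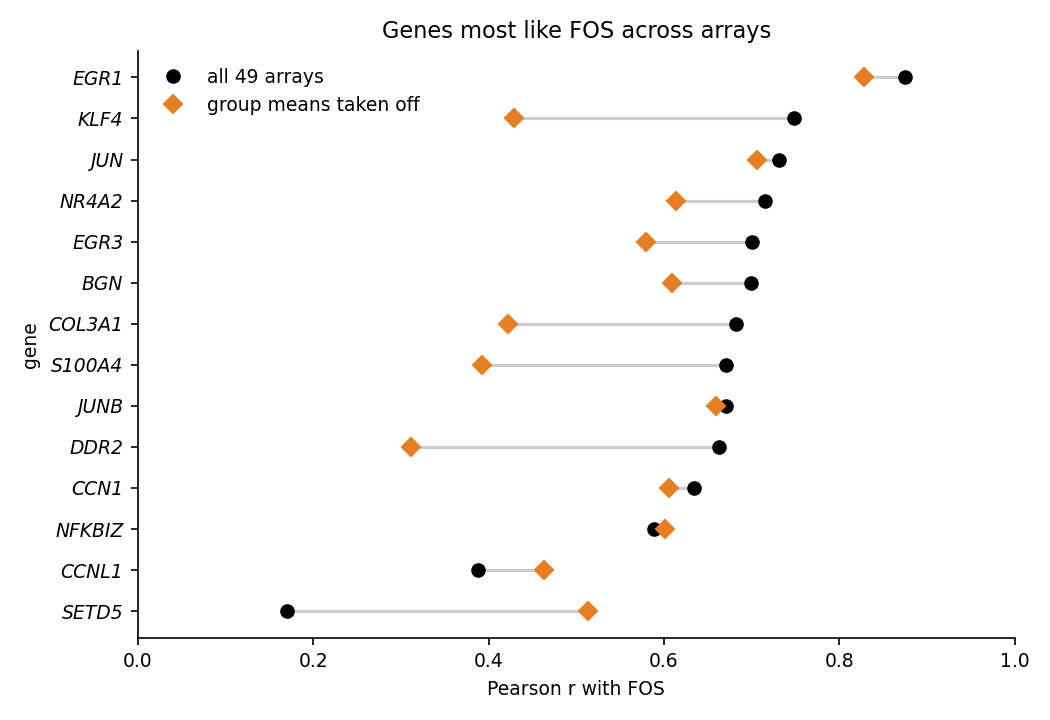
Pearson r with FOS (horizontal axis) of the 14 genes that were among the first 10 over all 49 arrays (black) or after group means were taken off (orange). EGR1, JUN, JUNB, NR4A2, BGN, CCN1 and NFKBIZ have an r of at least 0.60 in the second, while that of KLF4 moves from 0.75 to 0.43.

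Other early response genes, a list of 48 measured genes outside the 8, were mostly higher at 28 days where they were called. In the mean over depots 24 of 48 were called higher and none lower, where 20.6% of all probe sets were called higher and 4.85% lower, with a median difference of 0.17 against 0.03 over all probe sets. NR4A2 (0.96 ± 0.19, SE), KLF4 (0.96 ± 0.10), EGR3 (0.76 ± 0.19) and BTG1, which slows cell division (0.76 ± 0.09), had the largest differences. In subcutaneous fat 11 of 48 were called higher (7.68% of all probe sets), led by NR4A2 (1.92 ± 0.44), EGR3 (1.39 ± 0.45), ZFP36L1 (1.28 ± 0.32) and KLF4 (1.17 ± 0.23). In sternal fat 8 were called higher (2.47% of all probe sets), with KLF4 at 1.53 ± 0.22 and GADD45A, a gene of growth arrest, at 0.86 ± 0.21.

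Omental fat, where none of the 8 was called, had 11 of the 48 called higher (13.5% of all probe sets), among them ID4 (1.02 ± 0.28, SE), ID3 (0.74 ± 0.15) and ID2 (0.74 ± 0.19), inhibitors of basic helix-loop-helix factors. Perirenal fat had 9 higher and 1 lower (6.23% and 3.09% of all probe sets), the latter MCL1 (-0.26 ± 0.08), and GADD45A had the highest difference there (1.32 ± 0.21). Epicardial fat had 3 higher, a share near the 4.21% of all probe sets, which were KLF4 (1.03 ± 0.22), ID2 (0.61 ± 0.19) and ZFP36, which destabilises short-lived mRNAs (0.58 ± 0.18). KLF4 was thus called higher in 4 depots, without perirenal fat.

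Of 16 other bZIP factors, the family of Fos and Jun, 5 were called higher in the mean over depots and 1 lower, against 20.6% and 4.85% of all probe sets. BACH2 (0.54 ± 0.10, SE), ATF2, a partner of JUN (0.44 ± 0.10), and CREB3 (0.39 ± 0.06) were higher and ATF7 lower (-0.11 ± 0.04). Another list held 33 genes, which were kinases and factors upstream of the immediate early genes, with EGR corepressors counted among them. Of the 33, 9 were called higher and none lower, where the share of all probe sets called higher was 20.6%. Among these were ELK3, a ternary complex factor that binds with serum response factor (0.60 ± 0.06), NAB2, a corepressor of EGR1 (0.42 ± 0.07), MRTFB, a coactivator of serum response factor (0.40 ± 0.05), and the MAP kinase kinase MAP2K2 (0.36 ± 0.05). The difference between the ages was highest in subcutaneous fat for NAB2 (0.90 ± 0.16) and in sternal fat for MAP2K2 (0.62 ± 0.12).

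Genes of fibroblasts and progenitors also rose with age, with 7 of 8 called higher in the mean over depots (20.6% of all probe sets) and 6 of 8 in sternal fat (2.47%). The mean of the 8 genes on sternal arrays was 5.92 to 6.67 at 7 days. At 28 days it was 7.56 on I, 7.03 on J, 8.08 on M, 8.11 on N and 7.94 on O, so that the 3 arrays with high FOS had the 3 highest values. In perirenal fat at 28 days M, the array with high FOS, had a mean of 6.34 within a range of 6.08 to 6.89. In this list LUM was at most 3.27 on any array. The part of these cells in the values of FOS was not tested. Of the other marker lists, in the mean over depots all 5 endothelial genes were called higher, though none passed 3.99 on any array, as were 2 of 4 smooth muscle, 2 of 4 mesothelial and 1 of 5 leucocyte genes, against the same 20.6%. Of 8 adipocyte genes 2 were called higher and 1 lower, of 8 heat shock genes 5 and 2, and of 6 hypoxia genes 1 higher. None of 7 heart muscle, 12 skeletal muscle and 3 red cell genes was called in that mean. Leucocyte genes averaged between 2.72 and 3.04 on every array, and the 8 genes of the heat shock response averaged 5.39 to 5.61 on the sternal arrays of 28 days and 5.32 to 5.61 on those of 7 days.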

How the data were processed

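The authors made the deposited log2 values with the GCRMA method of the affy package, which corrects background from probe sequence, normalizes and summarises probe sets, and filtered probe sets before deposit. Their versions are not given here by any source used. Of 10273 probe sets, 487 carry no gene symbol and 6 several in the platform annotation, and no gene was named from these. For arrays, their number limits the precision. A low signal may come from little RNA or from sheep transcripts that bind human probes poorly.

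Tests used limma 3.58.1 in R 4.3.3 (lmFit, eBayes), fitting the 5 depots separately at each age, and all 10 groups together for the changes with age. Benjamini-Hochberg adjustment covered all probe sets within a comparison, called at an adjusted p of at most 0.05. The code was tested on simulated data. The genes and lists were chosen with earlier results of these data known, and the mean over depots, the pairwise differences of age changes and the exclusion of the 9 CKM-high arrays (CKM above 4 in sternal or subcutaneous fat, with epicardial arrays kept) were added after seeing the data. Named genes were all members, the 10 most like FOS by Pearson r (over all arrays and within groups, SD of at least 0.5), and of each list at most 4 called genes, besides ATF7 and MCL1, single genes that fell, chosen after their values were seen. Lists covered bZIP factors, early response genes, upstream kinases and factors, markers of heart and skeletal muscle, adipocytes, fibroblasts, endothelium, smooth muscle, mesothelium, leucocytes and red blood cells, and the heat shock and hypoxia responses. Alternatives were a replicate block (as a fixed or as a random effect), quantile normalization and a mean of at least 4. Others were array weights, fitting only the groups compared, and leaving out each array. The highest correlation between arrays was 0.990, so none was taken as a repeat.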

Additional observations from a re-analysis of the deposited data

Results flagged for a closer look

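In 60 groups of arrays (the 6 genes other than FOSL2 and ATF3, whose array values are mostly at 1 recurring low value, in 10 groups), 15 held an array that stood apart from the others by Dixon's ratio of gap to range. Chance marks about 1 in 20 groups. EGR1 was high on subcutaneous E of 7 days (4.57) and epicardial L of 28 days (5.49), and JUN on perirenal M of 28 days (8.62). JUNB was low on epicardial C (2.61) and sternal F (2.58) of 7 days, and high on perirenal G (3.98) and subcutaneous E (3.53) of 7 days and on epicardial L (3.84), omental N (4.38) and sternal N (6.39) of 28 days. JUND was high on omental D of 7 days (11.46). DUSP1 was low on sternal B of 7 days (2.52) and epicardial I of 28 days (3.44), and high on omental O (3.81) and perirenal N (3.86) of 28 days. JUNB and DUSP1 hold 1 recurring value on many arrays, which makes a small departure stand apart in this ratio.

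The change with age differed between depots for 2 genes by limma's test of the difference. That of JUN was lower in omental than in sternal fat by -1.54 (adjusted p = 0.0392), where JUN of sternal fat was higher on all 5 arrays of 28 days. That of DUSP1 was lower in sternal than in subcutaneous fat by -0.91 (adjusted p = 0.0409). Leaving out single arrays ended both calls. For JUN these were omental D, G, C and E and sternal D, F and B of 7 days, and omental I and J and sternal N and O of 28 days (sternal N with -1.25, 0.102). For DUSP1 these were sternal D, F, G and E and subcutaneous G and E of 7 days, and sternal J, M and N and subcutaneous M and N of 28 days (subcutaneous N with -0.72, 0.096).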

How the results depend on the processing

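The mean rise over depots of FOS, EGR1, JUN and JUND passed the test under every alternative run, and the count of 5 stayed within 1.5 times. The number of genes called between depots at 7 days went from 1 to 2 with the replicate block (FOS added, adjusted p = 0.0326) or quantile normalization and to 0 without the 9 CKM-high arrays of sternal and subcutaneous fat. That at 28 days went from 2 to 1 without these arrays, and that of the interaction from 1 to 2 with the replicate block and to 0 with quantile normalization or without these arrays. The count in epicardial fat went from 0 to 1 with only the 2 groups fitted, and in omental fat from 0 to 1 with quantile normalization or array weights. In perirenal fat it went from 1 to 0 with quantile normalization or only 2 groups, in sternal fat from 3 to 0 with only 2 groups or without these arrays, and in subcutaneous fat from 4 to 1 with quantile normalization and to 2 with only 2 groups. Calls over the 10 pairs at 7 days went from 3 to 5 with the replicate block or a mean of at least 4, and to 1 with only 2 groups or without these arrays. Those at 28 days went from 6 to 10 with a mean of at least 4. Leaving out single arrays gave 1 to 2 at 7 days, 2 to 4 at 28 days, 0 to 2 for the interaction, 0 to 1 in omental and in perirenal fat, 1 to 4 in sternal and in subcutaneous fat, and 1 to 11 and 4 to 10 over the pairs at 7 and 28 days. JUN in omental fat changed sign without omental G of 7 days (0.02) or J of 28 days (0.14), over a range of -0.34 to 0.14. JUNB, not called in these depots, changed sign in omental fat with quantile normalization (-0.011), in perirenal fat without M (-0.12 to 0.26 over single arrays), and in sternal fat without N (-0.0016 to 0.88) or without the 9 arrays named above (-0.016). The cause was not tested. FOS between depots at 28 days passed with quantile normalization (adjusted p = 0.0475) and with a mean of at least 4 (0.0169), and subcutaneous FOS with the latter (0.0314). Over single genes, 2741 of 2953 values kept their side of the threshold, 187 lost and 19 gained it, and 6 changed sign. Arrays with the same replicate number had a median correlation of deviations of 0.05 at 7 days and 0.06 at 28 days. Of 46 arrays, 24 correlated best with their own number. No number is shared between the ages, so a fixed block could not be fitted to the change with age within a depot or its mean. A random block was fitted to these changes.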
